A study of Arabidopsis thaliana with 8 samples.

Results

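The response to methyl jasmonate (MeJA) under continuous far-red (FR) light was described from 4 of the 8 arrays of the study, with *Ler* and *hy5-1* seedlings at 0 or 50 μM MeJA on 1 array each. The arrays were taken by their sample labels. For each probe set, the log2 ratio of the array with MeJA to the array without it was calculated in *Ler* and in *hy5-1*, and the mean of the 2 ratios was taken as the response. A probe set was counted as higher or lower with MeJA when both ratios were at least 2-fold in the same direction. *Ler* is the wild-type accession Landsberg *erecta*, in which both lines carry the *erecta* mutation, and *hy5-1* is a mutant of *HY5*, a bZIP transcription factor of light signalling. Seedlings were grown for 4 days on germination medium, with or without 50 μM MeJA in the medium throughout, under FR light of 1.5 μmol m-2 s-1, and whole seedlings were harvested for total RNA and Affymetrix ATH1 arrays. The other 4 arrays hold the same genotypes and treatments in darkness. The mutant is represented by 1 allele, and how many seedlings made up each RNA sample is not stated in the labels or methods.

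MeJA is taken up and converted into the active jasmonate, jasmonoyl-isoleucine, which brings the F-box protein COI1 together with JAZ repressors and leads to their degradation. MYC transcription factors are thereby released, and genes of jasmonate biosynthesis and turnover, of defence proteins, of glucosinolates and of anthocyanins are known targets of this pathway, whereas growth and cell elongation are inhibited. Under FR light, phytochrome A is the photoreceptor that drives seedling de-etiolation, and HY5 acts downstream of it. The comparison asked which transcripts differed with MeJA under FR light in the same direction whether or not *HY5* was intact.

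Without the 64 controls, the arrays gave 22746 probe sets out of 22810, and 13436 of them could be named by 1 gene (13286 genes in all). *HY5* and the *JAZ* genes had no named probe set in the annotation used, so the mutation itself could not be checked here. The study shows *JAZ* expression profiles from its microarrays, so for those genes the gap is one of naming. Below, a gene is called measured when it had a named probe set. Probe sets without such a name made up 505 of the higher and 435 of the lower ones. None of the control probe sets passed 2-fold in both genotypes in the same direction (0 higher and 0 lower), and the median ratio over all probe sets was -0.06 in *Ler* and -0.09 in *hy5-1*. The 4 FR values of every probe set are centred on a median of 0, so values are levels relative to that median, the level of a gene is not known, and ratios of dim and of bright signals look the same. The log base was taken as 2, because the largest FR ratio of 13.23 would be 556511-fold on a natural log scale, beyond the 65535 steps of a 16-bit scanner, and is 9604-fold in base 2. In RNA from whole seedlings, fewer cells of a type and less RNA per cell cannot be told apart.

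MeJA was accompanied by large differences that the genotypes shared. At least 2-fold in both genotypes, 1196 probe sets (5.26%) were higher and 1004 (4.41%) were lower with MeJA. These correspond to 685 named genes that were higher (5.16%) and 562 that were lower (4.23%). The largest differences were on the higher side. At least 8-fold in both genotypes, 162 probe sets were higher and 56 lower, and at least 32-fold, 30 were higher and 5 lower. The median mean ratio was 2.09 among the higher probe sets and -1.83 among the lower ones, against -0.08 over all probe sets.

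Over all probe sets, the absolute difference of the 2 log2 ratios had a median of 0.42. The higher and lower ones were chosen for 2 ratios past 2-fold in the same direction. Their agreement between the genotypes is therefore no independent result. Of the higher ones, 852 (71.2%) had ratios within 2-fold of each other, and of the lower ones 740 (73.7%). Such closeness was also usual over all probe sets, where the median difference of 0.42 is under 2-fold. The ratio was the larger one in *hy5-1* for 593 of the 1196 higher probe sets, and the decrease was the larger one in *hy5-1* for 530 of the 1004 lower ones. Many probe sets were outside this shared response. A ratio of at least 2-fold in either direction was found for 5455 of the 22746 probe sets in *Ler* and for 5606 in *hy5-1*. The shared 2200 make up 40.3% of the former and 39.2% of the latter. Of all 22746 probe sets, 814 (14.9% of those past 2-fold in *Ler*) were at least 2-fold in opposite directions. A further 5033 were past 2-fold in a single genotype. Each ratio rests on 1 array for each condition, so these counts do not separate the genotypes from differences between arrays. The plot of both ratios shows the long upper arm of shared increases and the shorter lower arm.

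**Figure D1:**
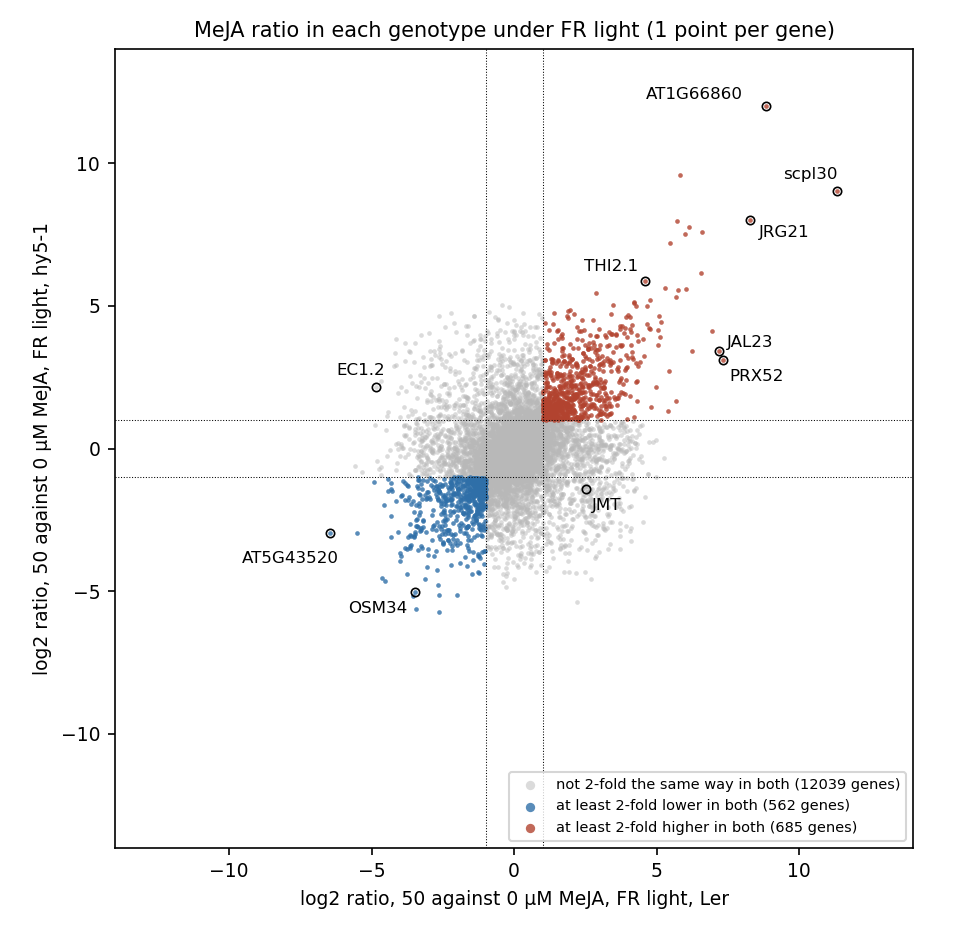
Log2 ratio of 50 against 0 μM MeJA under FR light in *Ler* (x axis) and in *hy5-1* (y axis), 1 point per named gene, with dotted lines at 2-fold. The 685 genes higher in both genotypes reach far beyond the 562 that were lower, with *AT1G66860* at 8.84 and 12.03, and *JMT* and *EC1.2* lie in the quadrants of opposite ratios.

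There is 1 array for each condition, and the genotypes gave the only repetition. In limma, fitted to the 4 FR arrays with genotype as a block and 1 residual degree of freedom, 0 of 22746 probe sets (0.0%) passed a Benjamini-Hochberg adjusted p of 0.05. The smallest adjusted p was 0.243, and 3557 probe sets had an unadjusted p under 0.05. The fit of all 8 arrays gave 0 calls as well, with 3861 at an unadjusted p under 0.05 and a smallest adjusted p of 0.0717. For the genes named here that passed 2-fold in both genotypes and had a single probe set, limma's adjusted p lay between 0.243 and 0.35. With 2 pairs, an exact two-sided sign-flip test of a gene cannot go below p = 0.5. The differences below are therefore those of the arrays, and the standard errors (SE) are limma's moderated errors of the mean ratio.

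Genes of jasmonate metabolism that act after the hormone is made were among the most strongly higher genes. The lists and families below were chosen with earlier results of these data known, so their shares are no independent result. Of the 12 genes listed for jasmonate conjugation and turnover, 5 were measured. Of these, 3 were higher in both genotypes (60%, against 5.16% of all genes). *JRG21*, jasmonate-regulated gene 21, was at -4.09 in *Ler* and -4.01 in *hy5-1* without MeJA, and at 4.19 and 4.01 with it. Its ratios of 8.28 and 8.02 nearly coincided, and their mean of 8.15 (SE 0.21) is a 284-fold difference. *AT2G38240* was at -2.97 and -3.17 without MeJA and at 3.57 and 2.97 with it, a mean ratio of 6.34 (SE 0.23, 81.1-fold). *AT5G05600* was at -2.96 and -2.78 without MeJA and at 2.78 and 2.79 with it, a mean ratio of 5.65 (SE 0.20, 50.4-fold). In all 3 genes both untreated arrays were far below both treated ones, and the gap between the genotypes at either dose was small beside the MeJA ratio. The other two measured genes of the list behaved differently. *AT3G11180* had ratios of -0.99 and -1.19, just short of 2-fold lower in *Ler*, and passed it after quantile normalization.

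*JMT*, which methylates jasmonic acid to MeJA, had opposite ratios in the genotypes. It was at -2.00 without and 0.52 with MeJA in *Ler*, but at 0.90 without and -0.52 with it in *hy5-1*. Its ratio was therefore 2.52 in *Ler* and -1.42 in *hy5-1*, and the untreated *hy5-1* array was the highest of the 4.

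Jasmonate biosynthesis was represented by 3 of 19 listed genes, and *OPCL1* passed 2-fold in both genotypes. *OPCL1* activates a jasmonate precursor in the peroxisome for its shortening by β-oxidation. Its values were -0.62 and -1.02 without MeJA in *Ler* and *hy5-1*, and 0.62 and 1.68 with it, so its ratios were 1.24 and 2.70 (mean 1.97, SE 0.50). *AIM1*, a multifunctional protein of peroxisomal β-oxidation, had ratios of 0.58 and 0.61. *DGL*, a lipase, had ratios of 1.03 and -0.07, so that it passed 2-fold in *Ler* alone. Of the 22 listed signalling genes, only the transcription factors *MYC3* and *MYC4* were measured. *MYC3* had ratios of 0.10 and -0.15, and *MYC4* of -0.60 and -0.42, all under 2-fold.

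Defence genes included some of the strongest increases as well as a strong decrease. Of 19 listed genes of jasmonate response and defence, 6 were measured. Of these, 3 were higher (50%, against 5.16% of all genes) and 1 was lower (16.7%, against 4.23%). The median of the mean ratios was 1.91, against -0.07 over all genes. *THI2.1*, an antimicrobial thionin, was at -2.29 and -3.58 without MeJA in *Ler* and *hy5-1* and at 2.29 in both with it, a mean ratio of 5.23 (SE 0.45, 37.5-fold). The jacalin-related lectin *JAL23* was at -5.84 in untreated *Ler* but at -1.34 in untreated *hy5-1*, and at 1.34 and 2.06 with MeJA. Its ratios of 7.18 and 3.40 differed mainly through the untreated arrays. *CHAT*, which makes the leaf volatile hexenyl acetate, had ratios of 3.06 and 2.33. *OSM34*, an osmotin-like protein, went the other way. It was at 2.09 and 1.40 without MeJA and at -1.40 and -3.64 with it, 19.2-fold lower as a mean (mean ratio -4.27, SE 0.53). The ratios of the defensin *PDF1.2* were 0.14 and 2.12, and those of *PDF1.2b* were -0.31 and 0.89. Neither passed 2-fold in both genotypes.

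Further defence genes were chosen after their values were seen. *JAL33* (1.32 in *Ler* and 1.14 in *hy5-1*) and *JAL34* (1.07 and 1.34) were higher, so that 3 of the 4 measured jacalin-related lectins passed 2-fold. That is 75%, against 5.16% of all genes, but the family was chosen with earlier results of these data known. Among the cysteine-rich peptides, *LCR24* had ratios of 6.25 and 3.41, and *LCR66*, which encodes a plant defensin, of 3.66 and 2.88. *BSMT1*, which methylates benzoic and salicylic acid, had ratios of 3.63 and 1.76, and *GRX480*, a glutaredoxin that binds TGA transcription factors, of 3.49 and 1.82. *THI2.2*, the thionin related to *THI2.1*, was lower instead. It was at 0.60 and 2.43 without MeJA and at -0.60 and -1.40 with it, with ratios of -1.21 and -3.83.

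The values of these and other named genes on the 4 arrays are shown gene by gene.

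**Figure D2:**
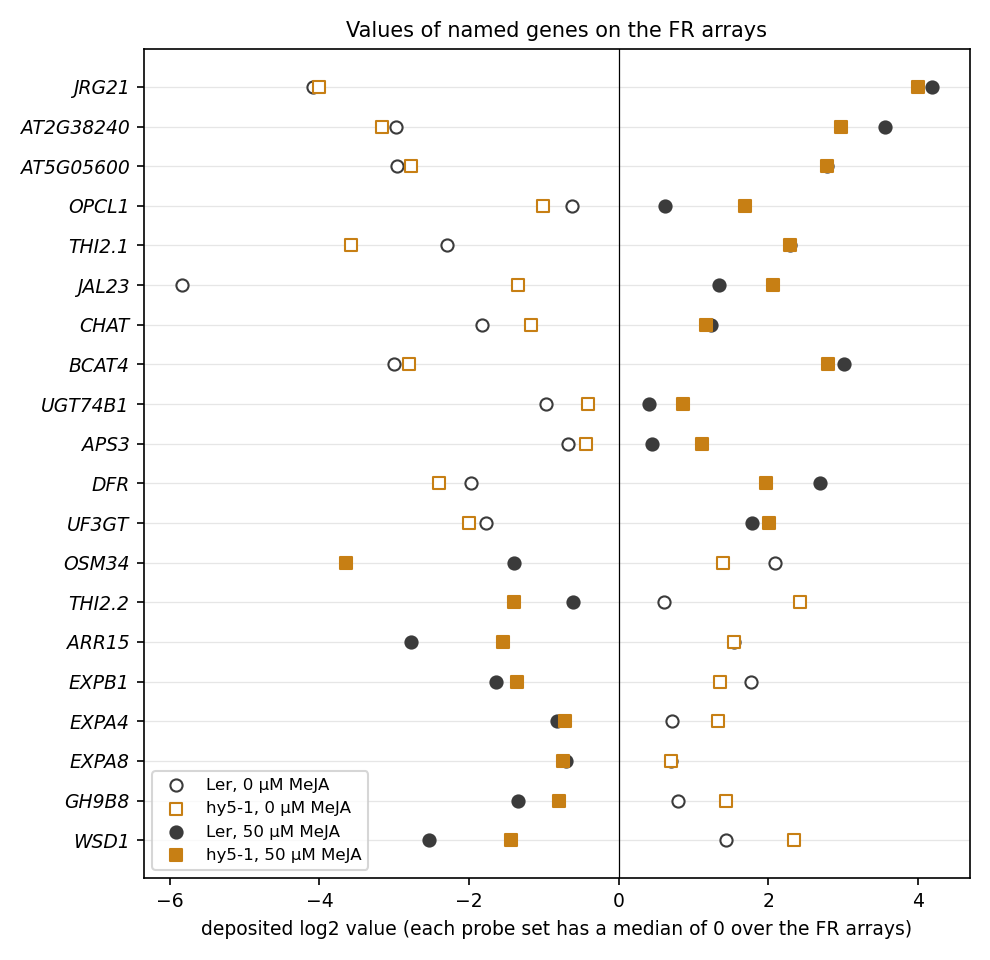
Deposited log2 values (x axis) of 20 named genes (rows) on the 4 FR arrays, with circles for *Ler*, squares for *hy5-1*, open symbols for 0 μM and filled symbols for 50 μM MeJA. From *JRG21* to *UF3GT* both filled symbols lie to the right of both open ones, and from *OSM34* to *WSD1* to the left, with *JAL23* in untreated *Ler* at -5.84 as the lowest value.

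Genes that supply sulfur and amino acids to glucosinolates, the sulfur-rich defence compounds of Brassicaceae, all had ratios above 0 in both genotypes where the lists' members were measured. *BCAT4* starts the chain elongation of methionine for aliphatic glucosinolates. It was at -3.00 in *Ler* and -2.80 in *hy5-1* without MeJA and at 3.01 and 2.80 with it, a mean ratio of 5.80 (SE 0.23, 55.9-fold). *UGT74B1*, the S-glucosyltransferase of the core pathway, was at -0.97 and -0.41 without MeJA and at 0.41 and 0.86 with it, with ratios of 1.37 and 1.26. These were 2 of the 4 measured genes of 28 listed for glucosinolate biosynthesis (50%, against 5.16% of all genes). The other two, *AT2G31790* with ratios of 0.94 and 1.12 and *AOP3* with 0.44 and 0.60, were on the same side of 0 but short of 2-fold in *Ler* or in both. *GTR2*, a glucosinolate transporter that was not in the list, had ratios of 1.14 and 1.44.

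Both measured genes of the 10 listed for sulfate assimilation were higher, where 5.16% of all genes were. *APS3*, an ATP sulfurylase that activates sulfate, was at -0.67 and -0.44 without MeJA and at 0.44 and 1.12 with it, with ratios of 1.12 and 1.56. *SIR*, the sulfite reductase, was at -0.60 and -0.72 without MeJA and at 0.60 and 1.01 with it, with a mean ratio of 1.46 (SE 0.25). The treated arrays lay above the untreated ones in both genes. *AT2G04400*, the only measured gene of 8 listed for tryptophan biosynthesis, had ratios of 1.12 and 1.29. Outside the lists, *HL* (2.42 and 2.44) and *SAL2* (1.53 and 1.68), of the phosphatase family that breaks down the by-product of sulfation, were higher. So were the methionine sulfoxide reductases *MSRB6* (3.08 and 2.98) and *MSRB9* (2.32 and 2.27) and *MGL*, the methionine gamma-lyase (2.01 and 1.76). The sulfotransferase *AT2G03770* (SULT202E1) had ratios of 4.81 and 1.47.

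In the anthocyanin pathway, 2 of the 5 measured genes of 18 listed were higher in both genotypes (median 1.05 over the 5). That is 40%, against 5.16% of all genes. *DFR*, which reduces dihydroflavonols on the way to anthocyanins, was at -1.97 in *Ler* and -2.40 in *hy5-1* without MeJA and at 2.69 and 1.97 with it, 22.9-fold higher as a mean (mean ratio 4.52, SE 0.21). *UF3GT*, a glycosyltransferase of flavonoids, was at -1.78 and -2.00 without MeJA and at 1.78 and 2.02 with it, 13.8-fold higher as a mean (mean ratio 3.79, SE 0.24). For both genes the treated arrays lay far above the untreated ones in either genotype. *AT4G14090* had a ratio of -0.31 in *Ler* and 2.41 in *hy5-1*. *UGT78D2*, a flavonoid 3-O-glucosyltransferase, had 0.42 and 0.14, and *AT5MAT*, an anthocyanin malonyltransferase, -0.05 and 0.44. *UGT78D1*, the flavonol rhamnosyltransferase, was higher outside the list with ratios of 1.93 and 3.21.

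Of 18 listed genes of phenylpropanoid and lignin biosynthesis, 3 were measured. *PRX52*, a cell-wall peroxidase, was at -5.16 in untreated *Ler* and -1.55 in untreated *hy5-1*, and at 2.16 and 1.55 with MeJA, so that its ratios were 7.32 and 3.10. *HCT* had ratios of 0.47 and 0.80. *CCR2*, a cinnamoyl-CoA reductase, had a ratio of -4.73 in *Ler* but -0.71 in *hy5-1*, and was thus not shared. *4CL8*, of the 4-coumarate:CoA ligase-like family, was higher with ratios of 4.72 and 4.24.

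Enzyme families that conjugate hormones and secondary metabolites were described by all members matched through a symbol or synonym. Members without such a name are left out of the counts. The UDP-glycosyltransferases, which attach sugars to small molecules, were the largest family measured, with 12 of 51 higher (23.5%, against 5.16% of all genes) and 2 lower (3.92%, against 4.23%). Their median mean ratio was 0.39, against -0.07 over all genes. *UGT76E1* was at -2.38 and -3.24 without MeJA and at 2.90 and 2.38 with it, with ratios of 5.27 and 5.62. *UGT71B5* (3.91 and 4.62) and *UGT76E12* (5.42 and 2.73) followed. *UGT72E3*, which glucosylates monolignols, was lower (-3.31 and -1.64), as was *UGT72B3* (-1.52 and -1.11). Of 14 glutathione S-transferases, 4 (28.6%) were higher and 1 was lower (median 0.55). *GSTU26* was at -1.94 and -2.27 without MeJA and at 1.95 and 1.94 with it, with ratios of 3.89 and 4.21, followed by *GSTU15* (1.56 and 3.82), *GSTU20* (2.09 and 1.36) and *GSTU16* (1.63 and 1.06). *GSTU28* was lower, with ratios of -2.10 and -1.60.

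Among 22 β-glucosidases, which release aglycones from stored glucosides, 6 were higher (27.3%, against 5.16% of all genes) and 2 were lower (9.09%, against 4.23%). Their median was 0.73. *BGLU27* had ratios of 2.62 and 3.13, *BGLU24* of 1.58 and 1.47, *BGLU44* of 1.61 and 1.25, and *BGLU25* of 1.05 and 1.55. *NAI2*, a component of the endoplasmic reticulum bodies that store β-glucosidases, had ratios of 1.19 and 1.57. The lower members were *BGLU40* (-1.03 and -1.53) and *BGLU47* (-1.45 and -1.04), and neither passed 2-fold in both genotypes when each array was set to a median of 0. Of the 22 cytochromes P450 with a subfamily letter in their symbol, 2 were higher and none was lower (median -0.04). The higher share of 9.09% was not far from the 5.16% of all genes. The higher genes were *CYP51G2* (3.56 and 3.57) and *CYP71B37* (1.27 and 1.29). *CYP718*, whose symbol has no such letter and which is not among the 22, was lower (-2.75 and -1.61). Of 23 serine carboxypeptidase-like genes, 2 were higher (8.7%, not far from the 5.16% of all genes). *scpl30* was the second highest gene of all, at -7.24 and -4.10 without MeJA and at 4.10 and 4.92 with it (ratios 11.34 and 9.02), and *scpl29* had a mean ratio of 1.49. The family plot shows the mean ratio of each member.

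**Figure D3:**
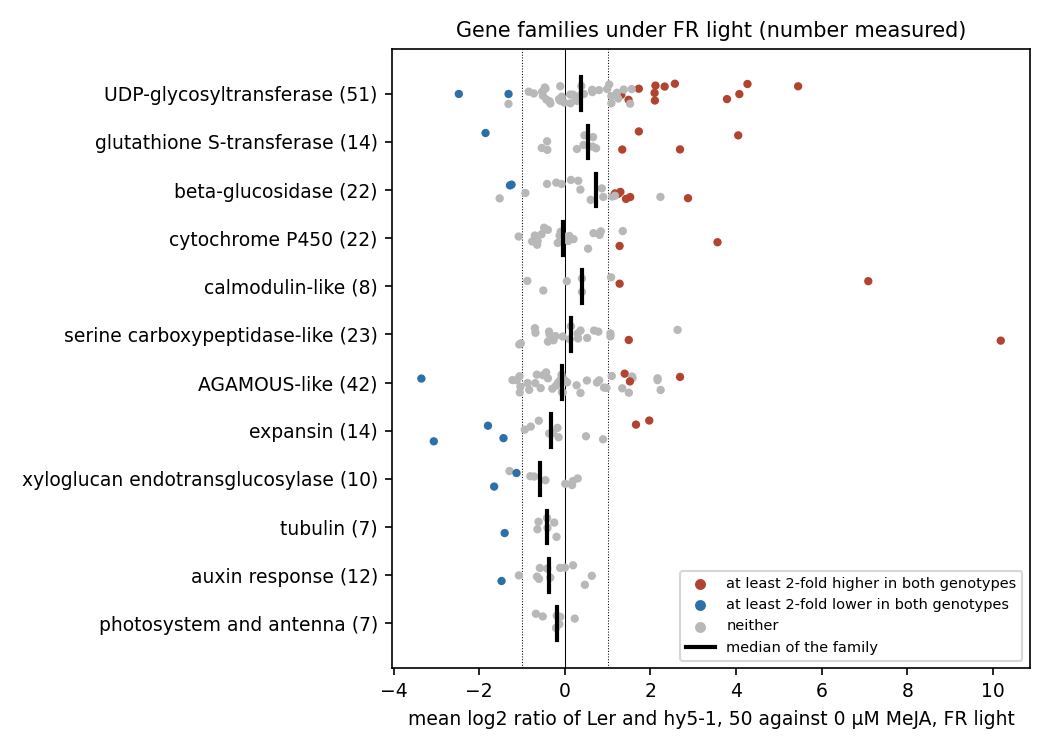
Mean of the *Ler* and *hy5-1* log2 ratios under FR light (x axis) for the measured genes of 12 families (rows), with a black bar at the family median and dotted lines at 2-fold. The UDP-glycosyltransferases hold 12 higher genes among 51. Lower genes number 2 of 10 xyloglucan endotransglucosylases, 1 of 7 tubulins (14.3%) and 1 of 12 auxin response genes (8.33%), with none higher. Of all genes, 5.16% were higher and 4.23% lower.

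The highest mean ratio of all genes belonged to *AT1G66860*, with a 1383-fold difference. It was at -4.40 in *Ler* and -7.62 in *hy5-1* without MeJA and at 4.44 and 4.40 with it, so that the treated arrays were alike and the untreated ones were not. *AT1G70720* had ratios of 5.80 and 9.58. *AT1G76640*, annotated as the calmodulin-like protein CML39, was at -3.30 and -3.44 without MeJA and at 3.30 and 4.14 with it, with ratios of 6.59 and 7.58. Together with *CML43* (1.49 and 1.06) it made up the 2 higher genes of 8 calmodulin-like genes (25%, against 5.16% of all genes). The remaining genes among the 15 highest that carry a locus name alone were *AT5G19110*, *AT4G22610*, *AT5G23840*, *AT5G43590* and *AT3G14395*, with mean ratios of 6.96, 6.75, 6.34, 5.53 and 5.50. They were at least 16-fold higher in both genotypes.

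Among the lower genes, cell-wall families held several members. Expansins, which loosen walls during growth, had 3 lower and 2 higher members among 14 measured (median -0.32). These are 21.4% lower and 14.3% higher, against 4.23% and 5.16% of all genes, so both shares were above those of all genes. *EXPB1* was at 1.77 in *Ler* and 1.35 in *hy5-1* without MeJA and at -1.64 and -1.35 with it, 8.34-fold lower as a mean (mean ratio -3.06, SE 0.29). *EXPA4* was at 0.72 and 1.33 without MeJA and at -0.82 and -0.72 with it, with ratios of -1.54 and -2.05. *EXPA8* was at 0.71 in both genotypes without MeJA and at -0.71 and -0.75 with it, with ratios of -1.41 and -1.45. In these genes both treated arrays lay below both untreated ones. *EXLA1*, an expansin-like gene, had ratios of -1.10 and -1.24. The exceptions were *EXPB2* (2.41 and 1.53) and *EXPA7* (1.46 and 1.86), which were higher.

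Xyloglucan endotransglucosylases, which cut and rejoin xyloglucan chains, had 2 lower members (20%, against 4.23% of all genes) and none higher among 10 (median -0.58). They were *XTH19* (-1.30 and -2.00) and *XTH32* (-1.09 and -1.17). Of the endoglucanases of glycosyl hydrolase family 9, *GH9B8* was at 0.79 and 1.44 without MeJA and at -1.35 and -0.79 with it, with ratios of -2.14 and -2.23. *GH9C3* was lower as well (-2.13 and -1.64), whereas *GH9B17* was higher (2.13 and 1.77). *PME61*, with ratios of -2.58 and -2.31, was the 1 lower gene among 3 measured pectin methylesterases (family median -0.06). The others, *AT4G02300* (2.98 and 0.34) and *ATPMEPCRB* (-0.35 and 0.24), did not pass 2-fold in both genotypes. Among the genes related to wall acetylation, *TBL38* (-1.49 and -1.08) and *TBL41* (-1.03 and -1.08) were lower, *TBL41* not with a median of 0 on each array, and *TBL37* (1.49 and 1.56) was higher. The endoglucanase and wall acetylation genes given here were chosen after their values were seen, and the measured members of their families were not counted. *TUB1*, a β-tubulin, was at 0.55 and 0.59 without MeJA and at -1.13 and -0.55 with it, and was the only one of 7 tubulins past 2-fold in both genotypes (ratios -1.68 and -1.13, family median -0.41).

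Of the 17 genes listed for hypocotyl elongation, 3 were measured, and *EXPA8* alone passed 2-fold in both genotypes. *XTH33* had ratios of -0.91 and -0.70 and *IAA29*, an Aux/IAA repressor of auxin response, of -0.87 and -1.27. All 3 mean ratios were below 0 (median -1.07).

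Genes of hormone response, signalling peptides and transport were found among the lower genes, chosen after their values were seen. *ARR15*, a type-A response regulator that dampens cytokinin signalling, was at 1.55 and 1.54 without MeJA and at -2.77 and -1.54 with it, 13.0-fold lower as a mean (mean ratio -3.70, SE 0.43). *IAA34*, another Aux/IAA gene, had ratios of -1.35 and -1.60 and was the only one past 2-fold in both genotypes among 12 measured auxin response genes. *BAT1*, an acyltransferase that acts on brassinosteroids, had ratios of -1.88 and -2.05. The untreated arrays of *ARR15* nearly coincided and its treated arrays did not, with 1 array for each genotype. The AP2-domain genes *TINY2* (-2.87 and -3.21) and *tny* (-1.86 and -2.14), the peptides *CLE26* (-1.93 and -2.70), *RALFL25* (-2.13 and -3.05) and *RALFL27* (-2.63 and -1.51), and the sugar transporter *SWEET3* (-2.45 and -1.96) were lower.

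*WSD1*, a wax ester synthase and the only measured gene of 14 listed for wax and cutin, was at 1.44 in *Ler* and 2.34 in *hy5-1* without MeJA and at -2.53 and -1.44 with it, 14.7-fold lower as a mean (mean ratio -3.88, SE 0.20). Genes known from water stress or seeds, also chosen from the lower genes after their values were seen, follow. They do not stand for such genes as a set. The dehydrins *LTI30* (-1.65 and -1.80) and *COR47* (-1.34 and -1.42), the linker histone *HIS1-3* (-2.81 and -3.78), the oleosin *OLEO3* (-1.47 and -1.22) and the ubiquitin ligase *PUB19* (-2.33 and -2.97) were at least 2-fold lower in both genotypes. The cold-regulated *COR15A* did not share this, with a ratio of -0.97 in *Ler* and 2.17 in *hy5-1*. The late embryogenesis abundant genes *M10* and *M17*, given below, were higher in both genotypes. The peroxidase *AT5G64120* (PRX71) had ratios of -2.41 and -2.67, in contrast to *PRX52*. The lowest mean ratio was that of *AT5G43520*, at 3.43 and 1.49 without MeJA and at -3.03 and -1.49 with it, 26.3-fold lower as a mean. *AT2G37440* (-4.64 and -4.55), *AT2G39040* (-4.54 and -4.65), *AT5G44440* (-3.43 and -5.64) and *AT5G59680* (-3.56 and -5.16) came next.

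Of 20 genes listed for seed maturation, 3 were measured and 2 were higher (median 2.60, with 5.16% of all genes higher). *M10* was at -2.85 and -4.57 without MeJA and at 2.85 and 3.41 with it, with ratios of 5.71 and 7.97. *M17*, like *M10* a late embryogenesis abundant gene, was at -1.39 and -0.80 without MeJA and at 0.80 and 2.22 with it (2.18 and 3.02). In darkness the ratios of *M17* were opposite, at -6.26 in *Ler* and 4.93 in *hy5-1*, whereas those of *M10* were 6.27 and 7.43. *COR15A* was the other measured gene of that list. Outside the list, the oleosin *OLEO3* was lower (-1.47 and -1.22).

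Genes of light signalling and of the chloroplast were measured in small numbers. *FHL*, which helps to carry phytochrome A into the nucleus, had ratios of -0.81 and -1.80, and *HYH*, the closest homologue of *HY5*, of -0.71 and -1.09, so that both of the measured genes of 20 listed were lower by 2-fold in *hy5-1* but not in *Ler*. Of 13 listed chlorophyll biosynthesis genes, *PORB* (0.04 in both), *CHLM* (-0.51 and -0.24) and *GSA1* (-0.11 and 0.45) were measured, and none passed 2-fold. The photosystem and antenna family had 0 of 7 members past 2-fold in both genotypes, with mean ratios from -0.68 to 0.23. Plastid-encoded genes had a lower median of -0.56 over 69 genes. Of these, 0 were higher and 3 (4.35%) were lower, a share near the 4.23% of all genes, *petG* (-1.20 and -1.73), *ndhF* (-1.01 and -1.51) and *ycf4* (-1.01 and -1.31), and the last 2 lost their place when each array was set to a median of 0. Reference genes stayed within narrow bounds. *GAPC2* (0.24 and 0.33), *PEX4* (-0.35 and -0.28), *AT2G28390*, *AT4G34270* and *AT4G26410* had ratios under 2-fold, with mean ratios from -0.32 to 0.29.

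The labels give whole seedlings as the tissue, and markers known mainly from flower organs and gametes were therefore examined beside it. Of 15 listed markers, 6 were measured, with 2 higher (33.3%, against 5.16% of all genes) and none lower. Their median was 0.18, against -0.07 over all genes. *AMS*, a transcription factor of the anther tapetum, was at -1.06 and -0.80 without MeJA and at 0.80 and 3.86 with it. *AT5G07230* was at -0.62 and -0.61 without MeJA and at 0.61 and 1.26 with it, with ratios of 1.23 and 1.87. *EC1.2*, secreted by the egg cell, was the most discordant of them, at 2.38 without and -2.46 with MeJA in *Ler* and at -1.07 and 1.07 in *hy5-1*. *MGH3* (1.48 and 0.64), *AGL18* (-1.03 and -0.71) and *AT5G45880* (-1.50 and 0.09) did not pass 2-fold in both genotypes. Since the values are centred, whether these markers were above background on any array is not known. The AGAMOUS-like family, many of whose members act in flowers and seeds, had 3 higher (7.14%) and 1 lower (2.38%) among 42 genes (median -0.06), shares near those of all genes. *AGL29* (3.63 and 1.76), *AGL78* (1.55 and 1.49) and *AGL28* (1.68 and 1.12) were higher and *AGL91* (-3.27 and -3.43) was lower.

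Shared responses were spread over the chromosomes. Of the measured genes, 4.60% to 6.18% were higher and 3.79% to 4.66% were lower on each of chromosomes 1 to 5. In 4 runs, 3 measured neighbours in a row passed 2-fold in the same direction. How many such runs a random gene order would give was not tested, so the runs are listed without a claim of clustering. *AT1G50050* (-2.18 and -3.54), *AT1G50060* (-1.44 and -3.92) and *AT1G50080* (-4.29 and -1.48) on chromosome 1 were lower, with no other protein-coding gene between them. *AT1G66880* (1.42 and 1.32) and *AT1G66850* (1.69 and 3.86) were higher on either side of *AT1G66860*, with 3 genes between them that were not measured. On chromosome 3, *UGT76E12*, *UGT76E11* (2.00 and 2.23) and *AT3G46680* (3.26 and 1.15) were higher, and on chromosome 4, *AT4G15270* (1.59 and 1.47), *UGT71B5* and *AT4G15390* (2.76 and 4.50). The run on chromosome 4 had 10 genes within it that were not measured. Genes of such a run can be similar in sequence, and probe sets may then share signal.

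The dark arrays, which the definition of the shared response did not use, give a second view of the same genes. In darkness, 1125 probe sets (4.95%) were higher and 1279 (5.62%) were lower with MeJA in both genotypes. Of the 1196 probe sets higher under FR light, 551 were also higher in darkness, which is 46.1% of the FR list and 49% of the dark list. Both dark ratios were above 0 for 731 (61.1%), against 28.4% of all probe sets, and the median dark mean ratio was 1.31. Of the 1004 lower probe sets, 340 were also lower in darkness, 33.9% of the FR list and 26.6% of the dark list. Both dark ratios were below 0 for 700 (69.7%), against 37% of all probe sets, and the median dark mean ratio was -1.04.

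The genes with the largest ratios under FR light were mostly those found in darkness too. Of 103 higher probe sets with a mean ratio of at least 4, 90 (87.4%) were higher in darkness, and of 107 lower ones with a mean ratio of -3 or less, 63 (58.9%) were lower in darkness. Over all 22746 probe sets, the FR mean and the dark mean had a Pearson r of 0.46, a description across probe sets that share their arrays. In darkness *JRG21* had ratios of 8.49 in *Ler* and 8.98 in *hy5-1*, *BCAT4* of 6.04 and 4.72, *THI2.1* of 8.51 and 7.04, *WSD1* of -6.40 and -5.62, and *OSM34* of -4.54 and -6.54.

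**Figure D4:**
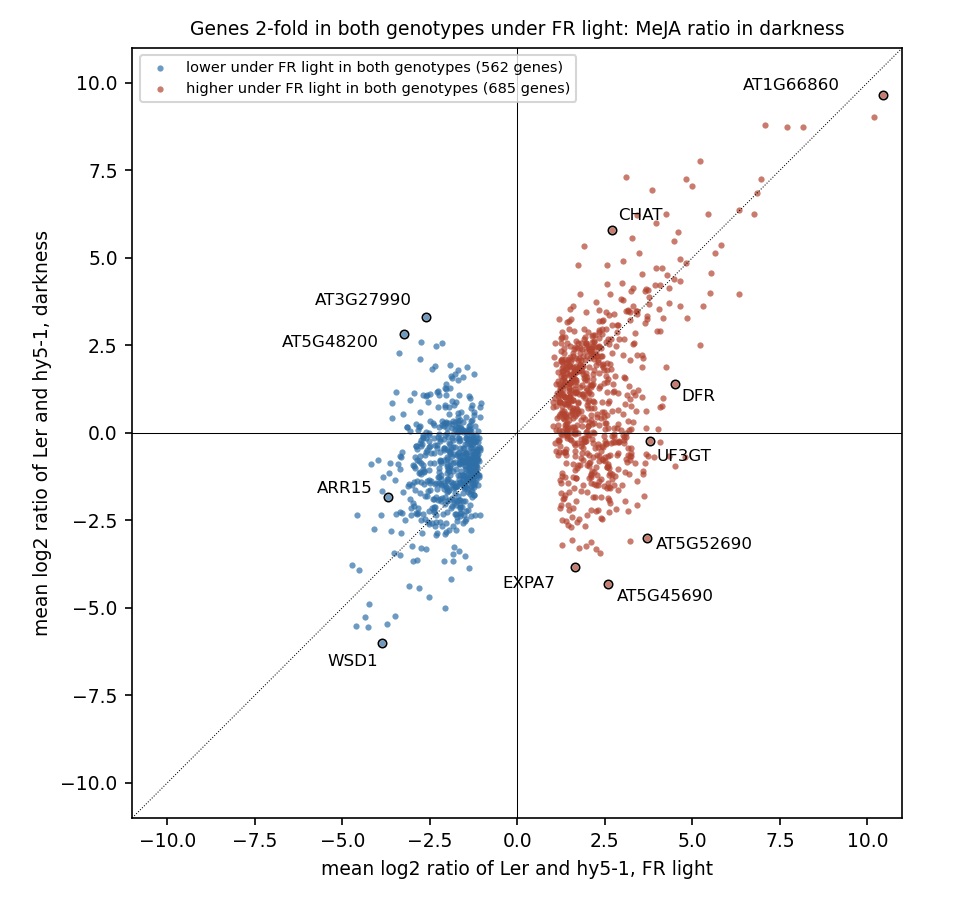
Mean of the *Ler* and *hy5-1* log2 ratios of MeJA under FR light (x axis) and in darkness (y axis) for the 685 higher and 562 lower genes, with the dotted line marking equal ratios. *AT1G66860* and *WSD1* lie at the ends of the shared arms, *UF3GT* lies near 0 in darkness, and *EXPA7*, *AT5G45690* and *AT3G27990* lie on the opposite side of 0.

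Other genes had ratios under FR light with little counterpart in darkness. Both dark ratios were under 2-fold for 142 (11.9%) of the higher and 226 (22.5%) of the lower probe sets, against 61.5% of all probe sets. *UF3GT* had dark ratios of -0.51 and 0.07, the subtilases *SBT3.3* (-0.04 and -0.32) and *SBT3.5* (0.26 and -0.72) were likewise under 2-fold, and *DFR*, with 1.23 and 1.54 in darkness, passed 2-fold there with a smaller ratio. Under FR light *SBT3.3* had ratios of 1.76 and 1.87 and *SBT3.5* of 3.27 and 1.76. Among the lower genes, *EXPA8* (-0.72 and -0.38), *EXLA1* (-0.42 and -0.04) and *JKD*, a zinc-finger regulator of root patterning (-0.37 and 0.09), were under 2-fold in darkness, whereas *JKD* had -1.44 and -1.50 under FR light.

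In darkness, 58 (4.85%) of the higher probe sets were at least 2-fold lower in both genotypes, near the 5.62% of all probe sets that were lower in darkness. Of the lower ones, 15 (1.49%) were at least 2-fold higher, against 4.95% of all probe sets. *EXPA7*, an expansin of root hairs, was higher under FR light but had dark ratios of -4.39 and -3.27. *AT5G52690*, *AT5G45690*, *AT3G29610* and *AT3G13240* were also higher under FR light and lower in darkness, as was *ANX1*, a receptor kinase of pollen tubes (3.04 and 1.48 under FR light, -3.04 and -3.62 in darkness). *CLE26* (1.74 and 3.23 in darkness), *AT3G27990* (3.31 and 3.29) and *AT5G48200* (3.76 and 1.87) were lower under FR light and higher in darkness. In limma on the 8 arrays, 0 probe sets (0.0%) had an adjusted p under 0.05 for the difference between FR light and darkness, with 1679 at an unadjusted p under 0.05 and a smallest adjusted p of 0.423. No difference between the light conditions was thus established for any gene.

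The 2-fold limit divided genes of nearly equal ratios. Just inside it on the higher side were *AT5G22810* (1.00 in *Ler* and 2.01 in *hy5-1*) and *AT1G10585* (1.00 and 1.72), and just outside were *GH9B12* (1.19 and 1.00) and *HRGP1* (1.00 and 1.01), printed to 2 decimals. On the lower side, *AT1G26800* (-1.42 in *hy5-1*) and *AT2G35430* (-1.73) were just inside and *bZIP44* (-1.69) and *AT3G26760* (-1.02) just outside, all with a *Ler* ratio at the limit itself.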

How the data were processed

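Values were taken from the series' table of 8 arrays, which holds log2 values that the authors made and deposited. The submitters' processing notes name MAS5, and the methods of the study name GeneSpring GX for normalization. Neither source gives versions, the scaling or any floor. Centring each probe set on a median of 0 within each light condition was read from the values. It removes levels and leaves ratios within a light condition. The precision is limited by 1 array for each condition, and no array repeats another.

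Probe sets were named through the platform's annotation, updated by locus to RefSeq symbols: 13436 had 1 gene, 503 had several, 77 lacked a locus, and for the other 8730, which the annotation leaves out, no name was used. A gene with several probe sets (144 genes) is given as their mean, with no limma value. All 8 columns of values matched a sample label. The members, 17 gene lists (55 of 278 genes measured) and 27 symbol-based families (8 of them with no measured member) were chosen with earlier results of these data known. Families were matched by RefSeq symbol or synonym. Named genes were the 15 highest and 15 lowest genes past 2-fold in both genotypes, up to 4 members past it in each list or family (the 2 largest mean ratios where there were none), genes next to the 2-fold limit, reference genes, runs of 3 neighbours, and the largest differences from darkness. Other genes named were chosen after their values were seen.

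The fold of 2 or 0.5 follows the study's methods. limma 3.58.1 in R 4.3.3 was fitted with genotype as a block, empirical Bayes moderation and Benjamini-Hochberg adjustment, and was tested on simulated data. Counts were made with pandas 2.3.3 in Python 3.11.15. Quantile normalization, a median of 0 on each array, folds of 1.5 and 4, removal of probe sets with equal lowest values, each genotype alone, robust moderation and a fit without the block were tried.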

Additional observations from a re-analysis of the deposited data

Results flagged for a closer look

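In several genes the MeJA ratio was at least 2-fold in both genotypes under FR light and at least 2-fold the other way in both genotypes in darkness, and the dark arrays of both genotypes thus opposed the FR arrays of both. The FR mean ratio minus the dark mean ratio was 6.73 for *AT5G52690*, 6.30 for *AT3G29610*, 6.92 for *AT5G45690*, 5.80 for *AT3G13240*, 5.59 for *ANX1*, 5.49 for *EXPA7*, 3.97 for *AT5G07230* and 3.67 for *LCR59*, all higher under FR light. It was -4.80 for *CLE26*, -5.92 for *AT3G27990*, -5.36 for *AT4G03720* and -6.04 for *AT5G48200*, all lower under FR light. The share of higher probe sets with opposite dark ratios (4.85%) was near the 5.62% of all probe sets that were lower in darkness. In limma's fit of the 8 arrays none of these differences passed an adjusted p of 0.05, and the smallest adjusted p over the named genes was 0.4235. In the genotypes, *JMT* and *EC1.2* were at least 2-fold in opposite directions under FR light, with the *hy5-1* ratio minus the *Ler* ratio at -3.94 and 6.99. That difference rests on 1 array for each condition and was not tested.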

How the results depend on the processing

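The counts of shared responses depended on the fold. At 1.5-fold in both genotypes 2108 probe sets were higher and 2430 lower, and at 4-fold 409 and 202. With each genotype alone, 2553 to 2905 were higher and 2550 to 3053 lower, by construction at least as many as in both. Quantile normalization gave 1227 higher and 983 lower (1175 and 947 of them shared with the deposited values), a median of 0 on each array gave 1306 and 905, and leaving out probe sets with equal lowest values on the FR arrays gave 1181 and 1000. Single genes were followed for 199 genes past 2-fold, not all of which are named above. Of these, 189 kept their place with a median of 0 and 194 after quantile normalization, whereas 10 and 5 lost it, and none changed sign. limma gave 0 calls in each fit that was run. Without the genotype block the smallest adjusted p was 0.0647 and 3969 probe sets had an unadjusted p under 0.05, and over the FR fits the smallest adjusted p ranged from 0.0647 to 0.261. The labels carry no replicate numbers, so the genotype is the only pairing. Of the higher probe sets, 551 were higher in darkness with the deposited values, and of the lower ones 340 were lower. In the settings chosen after seeing the data these became 583 and 300 after quantile normalization, and 601 and 293 with a median of 0. With 1 array for each condition and signals whose levels are unknown, the data cannot separate dim from bright probe sets.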
